A study of Malus domestica with 9 samples.

Results

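In apple peel uncovered from fruit bags, 170 genes formed an early peak that was partly retained: they were at least 4 times their 0 h level after 6 h of light, had come down by at least a factor of 2 at 24 h, and still stood at least a factor of 2 above 0 h, all on the scale of mean FPKM plus 1. FPKM stands for fragments per kilobase of transcript per M (mega) mapped fragments, and is the level per gene that the authors deposited. The members were chosen by these values themselves. With L as log2(mean FPKM + 1) at a time, a gene needed L at 6 h minus L at 0 h of at least 2, L at 24 h minus L at 0 h of at least 1, L at 24 h minus L at 6 h of at most -1, and a mean of at least 1 FPKM over the 9 libraries. This gave 170 of the 25362 genes with that mean (0.670%) and of the 46558 genes in the table. The differences between the times, and the model calls counted for them below, are therefore a description and not a test of the members.

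The samples were fruit peel of Malus domestica after 0 h, 6 h or 24 h of light following removal of the bags, with 3 libraries at each time that the submitters call biological replicates. The cultivar, the age of the fruit, and whether a library came from 1 fruit or a pool are not stated in the sources used here. All fruit, the 0 h group included, had been bagged. No fruit left in the bag was sampled at 6 h or 24 h, so light and bag removal cannot be told apart, nor at 6 h time of day, while 24 h comes a whole day after 0 h. In bulk peel, fewer cells of a type and less RNA per cell cannot be told apart either. The libraries held 15.3 to 19.5 M reads in genes, as worked out from the steps of the FPKM values. The third 24 h library stood apart, with a summed FPKM of 870488 against 635836 to 704706 in the others, so named results that it moved by more than 1.5 times are given with and without it.

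Bagging keeps fruit peel in the dark, and removal of the bag exposes it at once to visible and ultraviolet light. In plants, photoreceptors such as phytochromes, cryptochromes and UVR8 then restrain the ubiquitin ligase COP1, so that transcription factors such as HY5 accumulate and switch on light-responsive genes, among them those of anthocyanin synthesis, the pathway that turns apple peel red. Sudden light is also a stress, and in plants many transcripts of stress and defence responses peak within hours and then settle at a new level. The table gives gene identifiers alone. None of them occurs in the RefSeq gene table used here (51804 genes, 0 matched), so no name, role, coordinate or sequence is given for any member, and the tissue label could not be checked against marker genes.

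The members went from low to high and back to an intermediate level. The median over the members was 1.61 FPKM at 0 h, 46.2 FPKM at 6 h and 10.2 FPKM at 24 h. From the lower to the upper quartile they spanned 0.390 to 5.65 FPKM at 0 h, 19.6 to 103 FPKM at 6 h and 3.77 to 25.7 FPKM at 24 h. Over all 25362 tested genes the median hardly moved, at 8.23, 8.71 and 8.88 FPKM at the 3 times. The members thus lay below the typical gene at 0 h, far above it at 6 h and near it at 24 h.

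**Figure D1:**
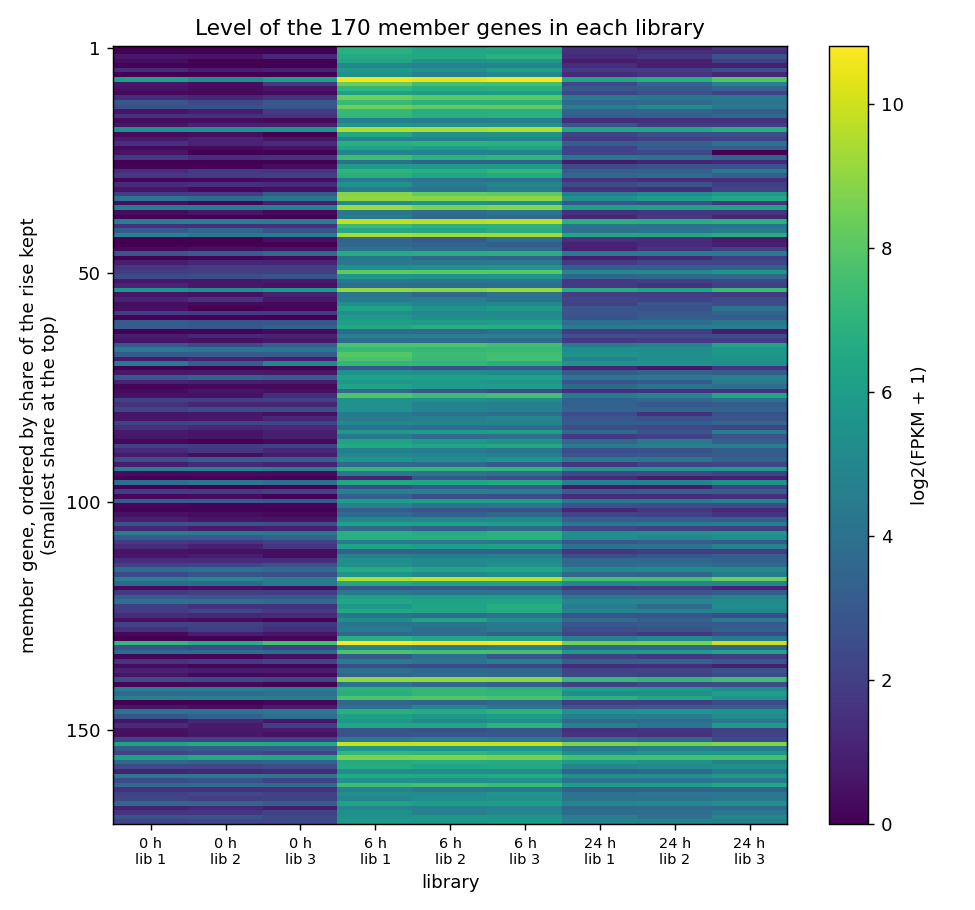
Level of each member in each of the 9 libraries as log2(FPKM + 1), with 1 line per gene and the genes ordered from the smallest to the largest share of the rise kept at 24 h. The 6 h libraries are brighter than the 0 h libraries in every line, and the 24 h libraries lie between them in 168 of the 170.

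Summed over the members, the level was 1133, 1093 and 1269 FPKM in the 0 h libraries, 21011, 18833 and 19658 FPKM in the 6 h libraries, and 4123, 4120 and 5753 FPKM in the 24 h libraries. The 3 times did not overlap in this sum. As a share of all FPKM in a library it was 0.176% ± 0.0129 at 0 h, 2.96% ± 0.210 in the 6 h group and 0.610% ± 0.0437 in the 24 h group (n = 3 libraries each, SD). The mean sum at 24 h was 4665 FPKM, and 4121 FPKM without the third library. A small number of genes carried much of this signal: the 10 members highest at 6 h held 44.5% of the summed mean FPKM of the members at that time.

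Library by library, the order of the times held for nearly every member. In 168 of the 170, every 0 h library lay below every 24 h library and every 24 h library below every 6 h library, an order found in 4.81% of the tested genes. The exceptions were MD01G1042000 and MD15G1302200. MD01G1042000 was at 0.472, 0 and 0 FPKM at 0 h, at 28.5, 26.4 and 28.8 FPKM at 6 h, and at 3.54, 4.13 and 0 FPKM at 24 h. The third 24 h library held no read of it, so 0 h and 24 h overlapped. At 24 h it kept 8.66% of its 6 h rise, or 13.3% without that library. MD15G1302200 was listed at 0 in all 0 h libraries, at 1.15, 6.99 and 4.78 FPKM at 6 h, and at 1.44, 0.719 and 0.939 FPKM at 24 h. Its lowest 6 h library lay below its highest 24 h library.

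By the limma model fitted to all tested genes, with a gene called at an adjusted p under 0.05 and a log2 difference of at least 1 in size, 170 members were called higher at 6 h than at 0 h, against 9.36% of the tested genes. At 24 h against 0 h 169 members were called higher, against 11.9% of the tested genes, and at 24 h against 6 h 170 were called lower, against 7.79%. All 3 calls held for 169 members. Over all tested genes they held for 171 (0.674%), of which only 2 were no members, so this share consists almost wholly of the members themselves. These comparisons share libraries with each other and with the rule, so the counts describe the members and are no separate evidence. The member that was not called at 24 h against 0 h was MD10G1309100, whose log2 difference was 0.98 as a mean of log2 values and 1.01 as the log2 of mean values. It stood at 14.3, 18.5 and 15.06 FPKM at 0 h, at 85.5, 82.6 and 93.2 FPKM at 6 h, and at 26.1, 28.2 and 45.2 FPKM at 24 h. All 3 times were separate in it, with the third library the highest at 24 h. It kept 24.2% of the 6 h rise at 24 h, or 15.8% without that library. Its 24 h difference from 0 h on the scale of the rule was then 0.73 and under the limit, as it was without the first (0.94) or the third (0.98) 0 h library.

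How much of the rise was left after a day differed widely among the members. The share kept is the mean at 24 h minus that at 0 h, divided by the mean at 6 h minus that at 0 h, in FPKM. It ran from 1.72% to 43.7% with a median of 22.2%. In 32 members under 10% of the rise was left, in 134 from 10% to 40%, and in 4 more than 40%. The median share over the 170 members was 18.9%, 19.6% and 22.1% when the 24 h level was taken from the first, the second and the third library alone, and it was 20.1% without the third. In 19 members leaving out the third library moved the share by more than 1.5 times.

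**Figure D2:**
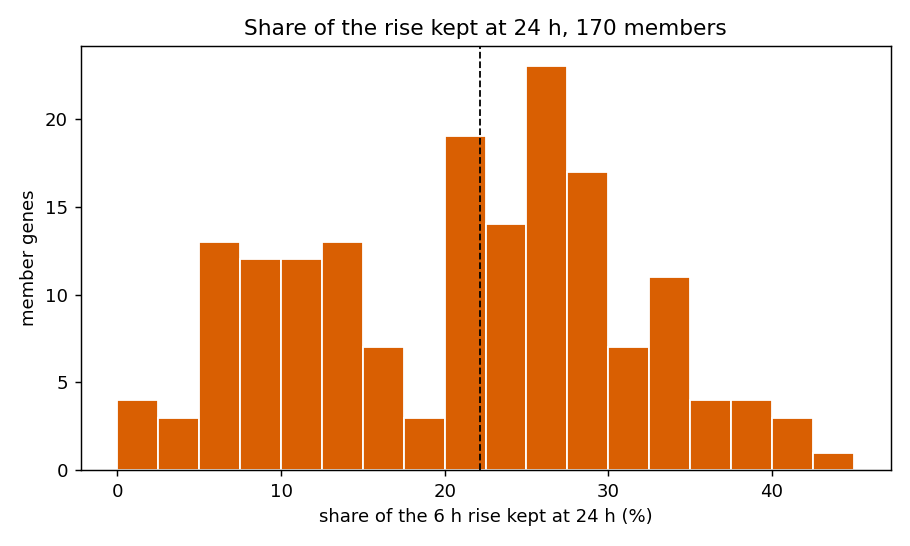
Number of member genes by the share of the 6 h rise that was left at 24 h, in percent, with the median of 22.2% as a dashed line. The members spread from near 0 to 43.7%, with fewer genes just below 20% than on either side.

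MD12G1000800 kept the largest share, 43.7%. It was at 3.68, 3.89 and 4.04 FPKM at 0 h, at 54.8, 50.2 and 58.6 FPKM at 6 h, and at 26.3, 27.1 and 24.7 FPKM at 24 h. The libraries of each time lay close together, and the 24 h group stood about midway between the other two. Without the third 6 h library its fall was -0.99 log2 units, just short of the limit. MD14G1045500 followed with 41.5%, at 6.00, 5.85 and 4.14 FPKM at 0 h, 46.1, 51.8 and 47.8 FPKM at 6 h, and 23.6, 16.1 and 30.2 FPKM at 24 h. Its 24 h libraries were spread more widely, and without the third the share was 33.5%. Its fall missed the limit without the second 6 h library (-0.98 log2 units) or the second 24 h library (-0.83).

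The smallest shares belonged to MD13G1208700 and MD14G1084000, which also had the deepest falls from 6 h, -5.21 and -5.14 log2 units. MD13G1208700 had no read at 0 h, 114, 80.5 and 104 FPKM at 6 h, and 1.99, 0.884 and 2.25 FPKM at 24 h. MD14G1084000 had no read at 0 h either, 114, 84.8 and 81.8 FPKM at 6 h, and 1.74, 1.63 and 1.66 FPKM at 24 h. Both were thus nearly, but not fully, back at their starting level, and they kept 1.72% and 1.79% of the rise. Against a floor of 3 reads over the 0 h group, MD14G1084000 was at least 1924-fold higher at 6 h and at least 34.5-fold higher at 24 h, and MD13G1208700 at least 686-fold and 11.6-fold higher. This floor covers counting error only.

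Members that were nearly silent before light were a small part of the 170, but a larger part than among all tested genes. There were 5 members with no read in any 0 h library and 14 with at most 3 reads over the 3 libraries, which is 8.24% of the members. Of the 25362 tested genes, 120 had at most 3 reads at 0 h, and 81 of these had the early rise. A gene that low at 0 h can reach the tested mean only by being higher later. An excess among the members over all tested genes is thus built into the selection. Among the 373 genes with the same early rise that were less than 1 log2 unit above 0 h at 24 h, 57 (15.3%) were that low, and among the 247 with the rise that had not fallen by 1 log2 unit or more from 6 h, 10 (4.05%). Of these 247 genes, called not fallen here, 131 were higher at 24 h than at 6 h. The 14 include MD06G1184300, which had 3 reads at 0 h, all in the third library, and was at 110.2, 81.6 and 79.0 FPKM at 6 h and 22.7, 34.9 and 19.6 FPKM at 24 h. It was 4.68 log2 units above 0 h at 24 h, a value that depends on the pseudocount, and kept 28.5% of its rise. The other 156 members had more than 3 reads at 0 h. Over these the median ratio to 0 h was 23.1 at 6 h and 5.01 at 24 h, and 94 of them were at least 4 times and 43 at least 10 times their 0 h level at 24 h.

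The starting level ran together with the share kept. The 48 members under 0.5 FPKM at 0 h kept a median of 15.5%, with medians of 16.2 FPKM at 6 h and 2.43 FPKM at 24 h. The 28 members at 10 FPKM or more kept 26.9%, with medians of 164 FPKM at 6 h and 60.2 FPKM at 24 h. Part of this is built into the rule, which asks more FPKM at 24 h of a gene that started high.

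On the log2(FPKM + 1) scale MD04G1147900 stood highest above 0 h at 24 h among the members, by 4.88 units. As a plain ratio this was 36.1-fold, and some members that started nearer 0 had larger ratios. Among the members under 0.5 FPKM at 0 h that had any read there, the median ratio was smaller, at 18.2. The 5 members without a read at 0 h have no such ratio and are left out of this median. MD04G1147900 was at 4.70, 4.55 and 3.75 FPKM at 0 h, at 524.8, 537.9 and 485.1 FPKM at 6 h, and at 156, 134 and 179 FPKM at 24 h. Each time was far from the others, and the gene rested on 342, 40633 and 11574 reads at the 3 times.

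On the log2(FPKM + 1) scale, which holds down the rises of genes that start near 0, the largest rises belonged to MD13G1161200 and MD16G1160100. MD13G1161200 went from 0.622, 0.329 and 2.29 FPKM at 0 h to 332, 187 and 180.2 FPKM at 6 h and 3.93, 10.9 and 27.7 FPKM at 24 h. It rose by 6.81 log2 units, and its difference of 24 h from 6 h was -3.95, or -4.80 without the third 24 h library, which was the highest of 3 that lay far apart. The share kept was 5.65% with that library and 2.73% without it. MD16G1160100 went from 0.460, 0.438 and 1.65 FPKM to 235, 171 and 197 FPKM and then to 20.3, 26.6 and 81.8 FPKM. It rose by 6.77 log2 units and was still 4.57 above 0 h at 24 h, and 3.72 above without the third library. It kept 21.0% of its rise, or 11.3% without that library.

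**Figure D3:**
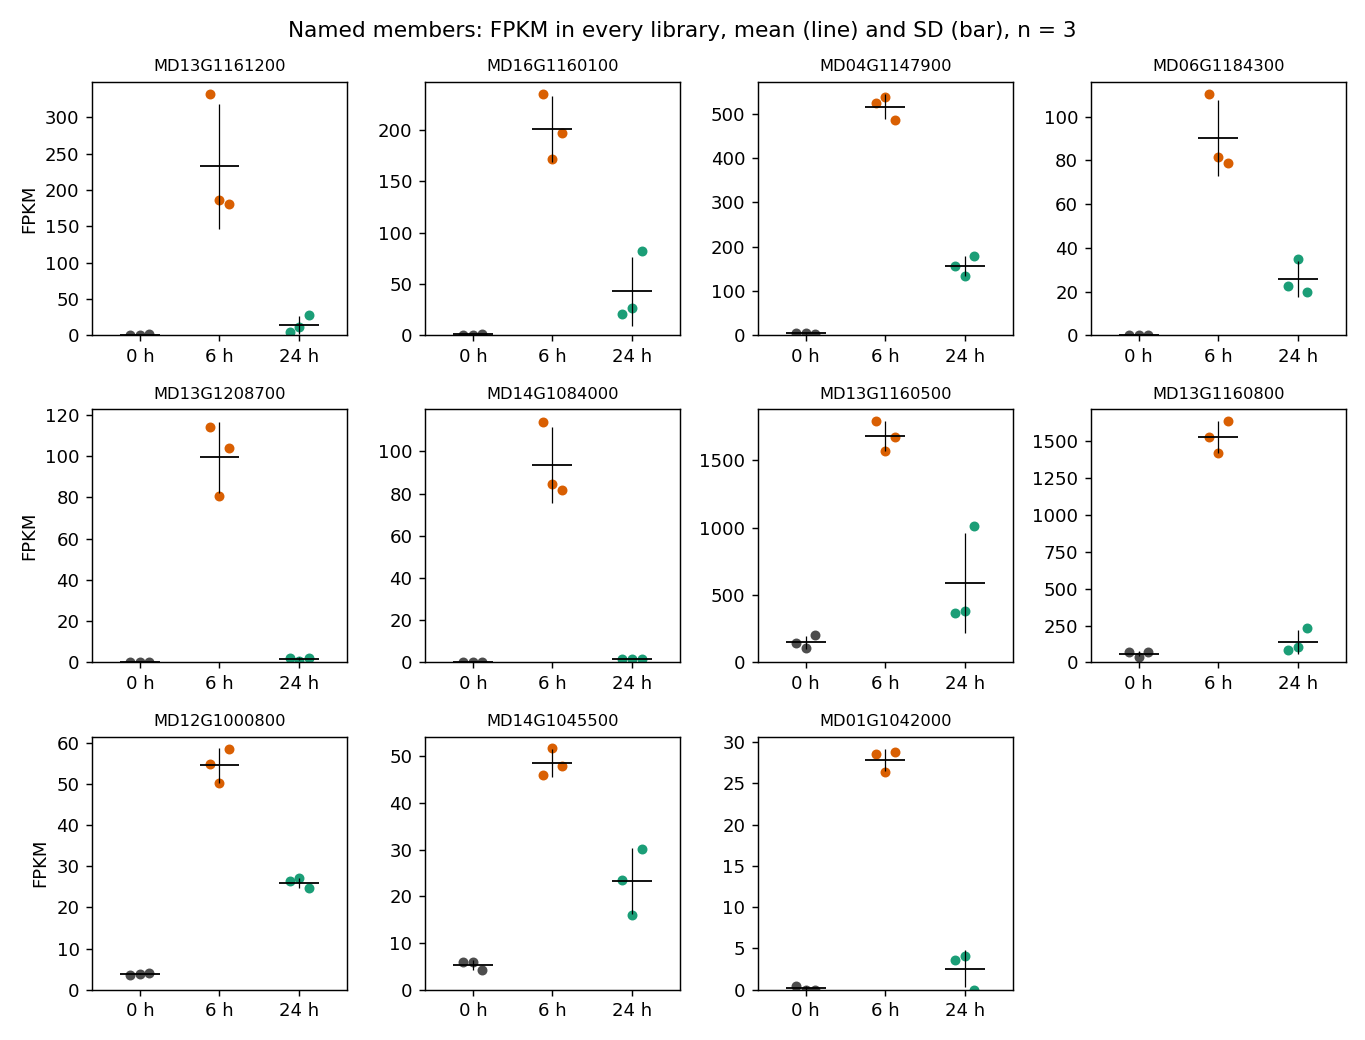
FPKM of the members named by size, level, share kept and spread, in each library (points), with the mean (line) and SD (bar) of the 3 libraries at each time and axes that start at 0. Among the members in which the highest 24 h point is the third library are MD13G1160500, MD13G1160800, MD13G1161200 and MD16G1160100.

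Both of the last genes lay in stretches of neighbouring rows that held several members, with other rows between them. That the members peaked at 6 h follows from the rule. The table is sorted by identifier, and whether neighbouring rows are neighbours in the genome is not checked here, since no annotation matched. These stretches were singled out after their values were seen. The longest unbroken run of members was MD13G1160500 to MD13G1160800, with 4 genes. From MD13G1160500 to MD13G1161200, 5 of 8 rows were members, and 2 more, MD13G1160900 and MD13G1161100, had the early rise but were less than 1 log2 unit above 0 h at 24 h. The remaining row, MD13G1161000, was under a mean of 1 FPKM, with no read at 0 h, a 6 h level of 2.17 ± 0.55 FPKM and a 24 h level of 0.28 ± 0.29 FPKM (n = 3 each, SD).

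MD13G1160500 was the member with the highest level at 6 h. It was at 144, 105 and 202 FPKM at 0 h, at 1792, 1570.3 and 1676 FPKM at 6 h, and at 365, 383 and 1015 FPKM at 24 h. The third 24 h library was 2.71 times the mean of the other two, and the share kept was 28.6% with it and 14.6% without it. MD13G1160800 was next in level, at 67.9, 38.9 and 67.8 FPKM at 0 h, 1523, 1417 and 1631 FPKM at 6 h, and 81.2, 108 and 233 FPKM at 24 h. It kept 5.63% of its rise, or 2.49% without the third 24 h library, and without that library it was 0.69 log2 units above 0 h at 24 h and no longer met the rule.

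Between these, MD13G1160600 rose from 6.88, 4.37 and 9.38 FPKM to 208, 219 and 180.0 FPKM and stood at 21.7, 25.8 and 77.5 FPKM at 24 h. MD13G1160700 rose from 1.11, 0.864 and 0.781 FPKM to 49.6, 56.6 and 47.3 FPKM and stood at 5.73, 7.07 and 21.5 FPKM at 24 h. In both, all 24 h libraries lay between the other times, and the third was 3.27 and 3.36 times the mean of the other two. MD13G1160600 kept 17.8% of its rise, or 8.62% without the third library, and MD13G1160700 kept 20.9%, or 10.9% without it.

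The second stretch ran from MD16G1160000 to MD16G1160500 and held 4 members in 6 rows. The other rows, MD16G1160200 and MD16G1160300, were under a mean of 1 FPKM, the former with no read in any library. MD16G1160500 rose from 25.5, 33.6 and 23.4 FPKM to 719, 916 and 873 FPKM and stood at 201, 194 and 338 FPKM at 24 h. MD16G1160000 rose from 16.2, 13.2 and 18.1 FPKM to 512, 458 and 489.7 FPKM and stood at 43.0, 63.0 and 87.9 FPKM at 24 h. MD16G1160400 rose from 0.23, 0.22 and 0.42 FPKM to 72.9, 63.4 and 75.1 FPKM and stood at 3.53, 7.97 and 7.56 FPKM at 24 h. None of these groups overlapped. The row just before the stretch, MD16G1159900, peaked at 139 ± 30.9 FPKM at 6 h but was at 8.26 ± 2.70 FPKM at 24 h, below its 13.5 ± 2.23 FPKM at 0 h (SD, n = 3 each). The row just after it, MD16G1160600, went the other way. Its level was 24.6 ± 9.55 FPKM at 0 h, 4.98 ± 1.94 FPKM at 6 h and 6.09 ± 3.04 FPKM at 24 h (SD, n = 3 each).

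**Figure D4:**
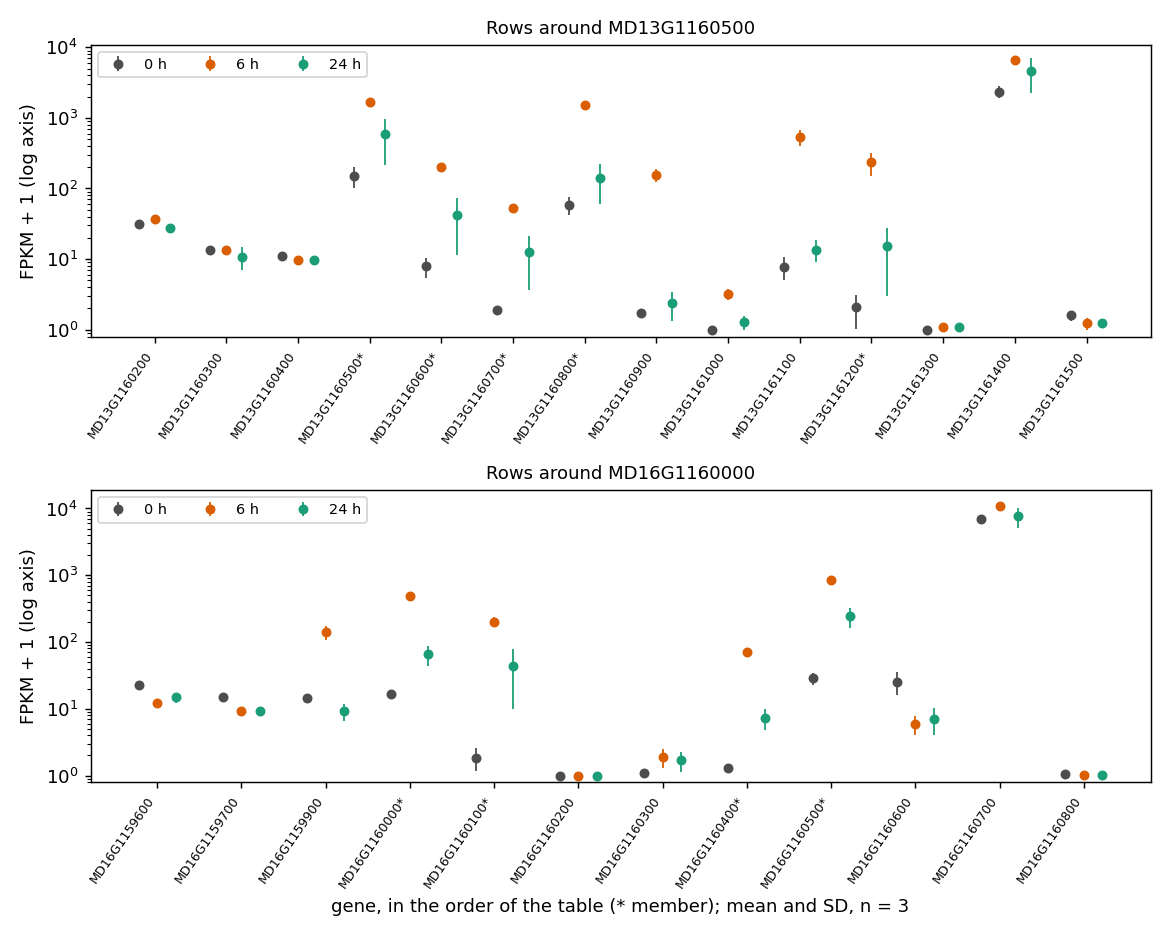
Mean FPKM plus 1 on a log axis, with SD over 3 libraries, for consecutive rows of the table around the stretches that start at MD13G1160500 and MD16G1160000, with members marked by an asterisk. The 6 h points stand above both other times in the marked genes, while rows at the left edge of the upper panel stay level. Around the second stretch, MD16G1159600, MD16G1159700 and MD16G1160600 were lower at 6 h than at 0 h.

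Together the 9 members of both stretches held 26.6% of the summed mean FPKM of all members at 6 h and 24.7% at 24 h. The 24 h share was 18.1%, 20.1% and 32.9% in the 3 libraries and 19.1% without the third. In these 9 genes the third 24 h library was 1.31 to 3.73 times the mean of the other 24 h libraries, and without it 8 of the 9 still met the rule. An abundant gene that was no member lay close to each stretch. MD13G1161400 was at 2361 ± 440.4 FPKM before light, 6616 ± 365 FPKM at 6 h and 4641 ± 2362 FPKM at 24 h, and MD16G1160700 at 7032 ± 489, 11016 ± 739 and 7609 ± 2524 FPKM (SD, n = 3 each). In both the third 24 h library was again the highest, at 7368 and 10523 FPKM. How the authors' counting treated reads that match several similar genes is not stated in the sources used here, so the split of reads within such stretches is uncertain.

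Neighbouring members were found in other places too. In all, 27 members (15.9%) had another member in the row before or after, in 12 runs, of which 10 were pairs. Of all tested genes, 0.848% had a member in a neighbouring row, and 3.77% a gene with the early rise, against 24.7% of the members. For the 373 genes back near 0 h and the 247 not fallen, the share with an early riser as neighbour was 17.2% and 12.6%. No test was made of these shares, since they depend on genes chosen from the same values.

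The run of 3 held MD05G1184400, MD05G1184600 and MD05G1184700, which reached 14.9 ± 5.56, 184 ± 24.3 and 87.5 ± 6.46 FPKM at 6 h and were at 1.62 ± 0.784, 37.7 ± 11.1 and 22.7 ± 2.41 FPKM at 24 h (SD, n = 3 each). At 0 h they had been at 0.0319 ± 0.0277, 0.843 ± 0.193 and 3.05 ± 0.248 FPKM (SD, n = 3 each). The rows just before this run, MD05G1184200 and MD05G1184300, had the early rise but were back near 0 h at 24 h. Their levels were 14.6 ± 3.68 and 15.1 ± 2.69 FPKM at 6 h, and 0.294 ± 0.181 and 0.395 ± 0.216 FPKM at 24 h (SD, n = 3 each). Members of a pair could differ strongly in level. MD06G1223900 reached 47.2 ± 3.79 FPKM at 6 h and its neighbour MD06G1224000 reached 861 ± 55.3 FPKM (SD, n = 3 each). They kept 6.78% and 10.8% of their rises. MD17G1099500 and MD17G1099600 were alike in the share kept, 34.6% and 30.8%, at peaks of 101 ± 3.20 and 223 ± 16.8 FPKM (SD, n = 3 each). Their 24 h libraries were spread widely, at 41.5 ± 15.0 and 85.2 ± 38.8 FPKM (SD, n = 3 each), so these shares are loosely fixed. MD14G1232100 and MD14G1232200 were unlike, with 2.49% and 26.7% kept. Without the third 24 h library MD14G1232100 kept 1.24%, was 0.73 log2 units above 0 h at 24 h and no longer met the rule.

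By the leading part of the identifier, members were spread over all 18 prefixes in the table. They were most frequent among tested genes that begin with MD13 (19 of 1399, 1.36%) and least among those that begin with MD08 (1 of 1239, 0.0807%). The members of the MD13 stretch account for 5 of the 19.

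The genes with the same early rise numbered 790, of which the members were 21.5%, the genes back near 0 h 47.2% and those not fallen 31.3%. The median rise at 6 h was 3.56 log2 units in the members, 2.50 in the genes back near 0 h and 2.51 in the others. A member has to rise by enough to stay 1 unit up after falling by 1, so the rule favours large rises. Gene length, which the rule did not use, had a median of 1255 bases in the members, 1221 bases in the genes back near 0 h, 1478 bases in those not fallen and 1533 bases over all tested genes. These lengths were worked out from the FPKM steps, and their differences were not tested.

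**Figure D5:**
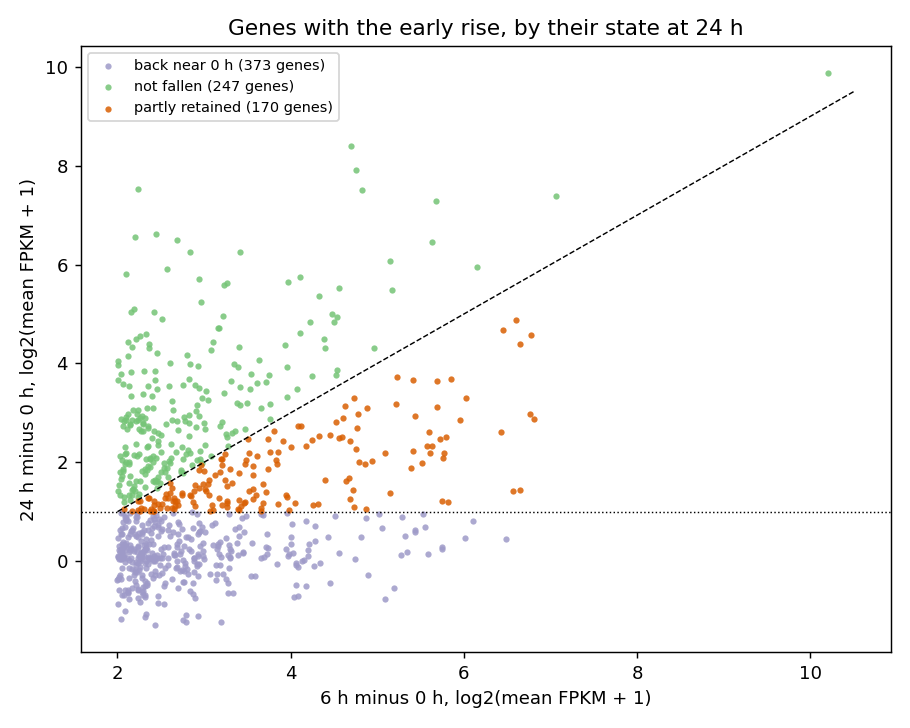
Difference from 0 h at 6 h (horizontal axis) and at 24 h (vertical axis), both in log2(mean FPKM + 1), for the 790 genes with the early rise, coloured by their state at 24 h. The members fill the wedge between the dotted line at 1 and the dashed line 1 unit below equality, up to a rise of 6.81.

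The spread between libraries of a time was wider at 24 h than at the other times. The median SD of log2(FPKM + 1) over the members was 0.147 at 0 h, 0.154 at 6 h and 0.252 at 24 h, and over all tested genes 0.110, 0.0984 and 0.192. The third 24 h library was the highest of its time in 102 members (60.0%), against 46.2% of the tested genes, 39.1% of the genes back near 0 h and 63.2% of those not fallen. In 44 members (25.9%) it was at least 1.5 times the mean of the other 24 h libraries, against 8.87% of the tested genes, 20.4% of the genes back near 0 h and 19.8% of those not fallen. At 6 h the first library was the highest in 105 members (61.8%), against 36.5% of the tested genes, 62.7% of the genes back near 0 h and 28.7% of those not fallen. What made these libraries differ was not tested.

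The largest ratio of the third 24 h library to the others was 4.84, in MD10G1153400, whose share kept was 24.2% with that library and 10.4% without it. Without it the gene was 0.72 log2 units above 0 h at 24 h and no longer met the rule. The smallest ratio above 0 was 0.305, in MD13G1141600. The reads behind a member ranged from 177 to 70356 over the 3 libraries at 6 h and from 24 to 26434 at 24 h, and 153 members had at least 100 reads at 24 h.

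The edges of the rule cut through a continuous range. MD02G1199000 was the closest member to the limits on both the rise (2.07) and the fall (-1.01), at means of 0.595, 5.71 and 2.32 FPKM. It missed a limit when any of 6 libraries was left out, and MD15G1302200 missed one without the second 6 h or the first 24 h library. MD10G1309100 was the closest to the limit at 24 h against 0 h, at 1.01. Just outside, MD13G1124900 reached 0.99 in that difference, with means of 5.45, 45.9 and 11.8 FPKM, and MD13G1082100 differed from 6 h by -0.98 log2 units at 24 h, with means of 3.71, 35.9 and 17.7 FPKM. No gene could miss the rule by its rise alone or by its mean alone, since the other limits imply these, and the lowest mean of a member was 1.78 FPKM, in MD15G1302200.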

How the data were processed

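The authors deposited 1 FPKM value for each gene in each library. HISAT2 and Cufflinks appear in the submitters' processing notes, while versions, genome build, annotation and strandedness are not stated in the sources used here. FPKM are whole reads divided by gene length and a library factor, so reads and lengths were worked out from the smallest steps. For all 37142 genes above 0, 100% of the values above 0 came within 0.1 of a whole number of reads. Genes with few reads are less certain. Library denominators in the deposited FPKM were 16.2 to 19.0 M, and the reads in genes were 0.911 to 0.941 of them at 0 h, 0.961 to 0.985 at 6 h, and 1.02, 1.03 and 1.21 in the 24 h libraries. At 24 h the reads in genes thus exceeded the denominator, so it cannot be a plain total of mapped reads that each count in 1 gene.

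Log2(FPKM + 1) was fitted for the 25362 genes whose mean reached 1 FPKM, with limma 3.58.1 in R 4.3.3, with 1 mean per time, all 9 libraries and a variance trend, and Benjamini-Hochberg adjusted p-values over all tested genes. Both steps were tested on simulated data first. The pseudocount of 1 shrinks the differences of low genes. The labels do not say whether the libraries of a time come from separate fruit, so p-values and SDs measure the spread between these libraries. The members, lists and limits were chosen with earlier results of these data known. Named members are those with the largest rise, the highest level above 0 h, the deepest fall, the highest peak, the largest and smallest share kept, the widest spread at 24 h, those at the edges of the rule and the longest run of neighbours. Those chosen by rise, height above 0 h, fall or share kept had to reach a mean of 10 FPKM at 6 h, and the others had no such limit. Other genes were named after their values were seen. Alternatives were other pseudocounts, filters, scalings and fits, and leaving out each library.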

Additional observations from a re-analysis of the deposited data

How the results depend on the processing

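The pseudocount set the size of the group. With 0.1 in place of 1, 287 genes met the rule, among them all 170 members, with 287, 276 and 280 of these called at 6 h against 0 h, 24 h against 0 h and 24 h against 6 h, and 269 in the full order of libraries. With 5, 73 genes met it, all of them members, with 73, 73 and 72 called and 73 in the full order. A larger pseudocount shrinks low genes by construction. With summed FPKM as the denominator 159 genes met the rule, 140 of them members. This scale shifted the median log2 difference over tested genes by -0.16 at 24 h against 0 h and by -0.15 against 6 h. All 170 members were still higher at 6 h and 24 h than at 0 h and lower at 24 h than at 6 h. Shifts of this size could not have reversed differences of at least 1 log2 unit, so the kept directions are no separate evidence. After quantile normalization 171 genes met it, of which 152 were members. With a mean of at least 5 FPKM 149 genes remained to be counted. Without any 1 of the libraries the rule gave 159 to 175 genes, with 143 to 168 of the members kept, the fewest without the third 24 h library, and 123 members met the rule in every one of these 9 cases. The counts called then ran from 159 to 175, 158 to 170 and 157 to 174, and the full order from 158 to 173. Under each setting these are counts of genes that the rule picked from the same values, so they are descriptions. The shares over all tested genes were worked out for the main fit alone.

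The replicate numbers are no evident pairing: same-numbered libraries of different times deviated from their time means with correlations of -0.0627 to 0.0762 across genes. With the replicate number as a block, 170, 168 and 170 members were called. A limma-voom fit to the worked-out reads, added after the data were seen, called 170, 168 and 169. No share over all tested genes was worked out for these fits either.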
